A study of Mus musculus with 4 samples.

Results

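The cells described here were spleen cells of 1 pBIC10 mouse that were gated as macrophages and held transcripts of Mrc1 or Mmp12. They were set against cells of the same mouse and the same gate in which neither gene was detected. A barcode, the tag that marks the transcripts of 1 droplet, was kept when it held at least 1 unique molecular identifier (UMI, a counted transcript) of Csf1r and at least 5 of Lyz2, which mark monocytes and macrophages. It also had to hold fewer than 2 UMIs of the patrolling monocyte genes Ace, Treml4 and Cd300e together, 0 of the T-cell gene Cd3e, at most 2 of the B-cell genes Cd79a and Cd79b together, 0 of the neutrophil gene Csf3r, and at least 3000 UMIs in all. Of the 14991 barcodes of the pBIC10 gene expression library, 1131 met these conditions. Among them 165 barcodes with at least 2 UMIs of Mrc1 and Mmp12 together were called positive and 861 with 0 were called negative, while 105 with a single UMI were set aside. The same conditions kept 107 of 18129 barcodes in the pBIC library, of which 2 were positive, 2 had a single UMI and 103 were negative.

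The series compared 1 pBIC mouse with 1 pBIC10 mouse, both female, and its title asks what IL-10 made by tumour B cells does to the surroundings of diffuse large B-cell lymphoma. Both mice carried a GFP-marked lymphoma in the spleen, and each spleen suspension was sorted so that lymphoma cells made up 20% and GFP-negative cells 80% of the live cells loaded. From each suspension a droplet 5′ gene expression library and a T-cell receptor (TCR) library were made. The labels used here give neither the age of the mice nor the genetic change behind pBIC10, and no change was presumed. With 1 mouse for each genotype there was no replicate of either, and cells of 1 mouse are not replicates, so no test was made and no p-value is given. All intervals are exact 95% intervals that cover counting error only, not the spread between cells or between mice.

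Mrc1 encodes the mannose receptor, an endocytic receptor of macrophages that clears glycoproteins and microbes and is widely used as a marker of alternatively activated macrophages. Mmp12 encodes macrophage elastase, a secreted metalloproteinase that cuts elastin and other matrix proteins and is made mainly by macrophages. Trem2, a lipid-sensing receptor that signals through Tyrobp, and Spp1, the secreted phosphoprotein osteopontin, are used together to mark lipid-associated and tumour-associated macrophages, which arise largely from monocytes that enter a tissue. Resident red pulp macrophages of the spleen are a different population, known for iron recycling under the control of Spic.

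The upstream sequences of the genes that divide these cells are shown because Mrc1 and Mmp12 chose the members and because Pf4 and Ccl17 were among the genes with the largest differences, both from negative barcodes and between Mrc1-only and Mmp12-only barcodes. Each line gives the 250 bases before an annotated transcription start on the plus strand, from RefSeq on build GRCm38.p6. The submitters' processing notes name GRCm39, so the windows were matched by gene symbol only and no coordinate was carried over. Capitals mark matches, on either strand, to any of 5 motif spellings: the AP-1 site TGANTCA, the E-boxes TCACGTG and TCATGTG, the STAT site TTCNNNGAA, and GAGGAAGT, a core bound by PU.1. The windows are Mrc1 at chr2:14229164-14229413, Mmp12 at chr9:7344147-7344396 for start 1 and chr9:7347124-7347373 for start 2, Ccl17 at chr8:94810203-94810452 and Pf4 at chr5:90772185-90772434.
Mrc1: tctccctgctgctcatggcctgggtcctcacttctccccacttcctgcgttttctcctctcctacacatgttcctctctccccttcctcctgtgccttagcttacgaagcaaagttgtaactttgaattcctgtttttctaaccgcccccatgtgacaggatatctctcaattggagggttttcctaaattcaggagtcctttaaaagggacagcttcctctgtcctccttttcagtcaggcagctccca
Mmp12 start 1: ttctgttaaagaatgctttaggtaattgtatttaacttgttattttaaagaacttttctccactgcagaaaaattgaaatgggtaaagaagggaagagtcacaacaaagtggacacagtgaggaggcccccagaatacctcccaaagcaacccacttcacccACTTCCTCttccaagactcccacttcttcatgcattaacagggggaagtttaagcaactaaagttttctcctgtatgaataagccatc
Mmp12 start 2: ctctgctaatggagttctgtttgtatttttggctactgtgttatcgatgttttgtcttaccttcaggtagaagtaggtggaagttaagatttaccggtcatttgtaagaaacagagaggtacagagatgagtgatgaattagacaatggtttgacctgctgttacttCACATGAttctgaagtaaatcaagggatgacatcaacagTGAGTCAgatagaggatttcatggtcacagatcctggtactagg
Ccl17: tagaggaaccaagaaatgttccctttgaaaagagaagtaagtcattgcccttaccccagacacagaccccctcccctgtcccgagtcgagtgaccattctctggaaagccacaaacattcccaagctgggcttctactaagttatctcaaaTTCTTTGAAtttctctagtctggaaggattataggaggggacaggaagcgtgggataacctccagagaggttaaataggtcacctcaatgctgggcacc
Pf4: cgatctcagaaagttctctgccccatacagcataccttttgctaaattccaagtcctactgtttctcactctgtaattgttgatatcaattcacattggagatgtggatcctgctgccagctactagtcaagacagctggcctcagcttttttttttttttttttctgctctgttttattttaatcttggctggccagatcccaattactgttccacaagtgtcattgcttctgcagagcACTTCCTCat

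None of the 5 spellings occurred in the window of Mrc1. In Mmp12 the PU.1 core lay 88 to 81 bases before start 1, and the AP-1 site lay 44 to 38 bases and the TCATGTG spelling 83 to 77 bases before start 2. The STAT spelling lay 99 to 91 bases before the start of Ccl17, and the PU.1 core 10 to 3 bases before that of Pf4. Among 32851 windows of the same length in the table, 6.75% held the AP-1 site, 3.13% TCACGTG, 3.25% TCATGTG, 7.02% the STAT site and 2.44% the PU.1 core. The table held 8 of the 12 genes named below as leading the higher side in positive barcodes. Of these, 2 held the AP-1 site in any window, 0 TCACGTG, 1 TCATGTG, 2 the STAT site and 2 the PU.1 core. Such counts are per gene over any of its windows, while the shares above are per window, so the units differ. These matches describe the letters only.

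The pBIC10 library held 147884282 UMIs, with a median of 5458 per barcode, and the pBIC library 166941618, with a median of 6235. The 2 libraries shared 712 barcode sequences, including 6 of the 165 positive barcodes. The gated barcodes were deeper than the library as a whole, with a median of 12311 UMIs. Positive barcodes were deeper than negative ones, with medians of 16627 and 11651. For the comparison each positive barcode was therefore paired with the unused negative barcode nearest in total UMIs. All 165 found a partner within 0.0692 log2 units, and the median over the 165 matched negative barcodes was 16631. A TCR contig was present in 1 positive and 0 negative barcodes, Scrublet called 0 and 4 of them doublets, and 3 and 7 had at least 10% mitochondrial UMIs.

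Positive barcodes made up 14.6% of the gated barcodes in pBIC10 (165 of 1131, interval 12.6 to 16.8) and 1.87% in pBIC (2 of 107, 0.227 to 6.59). Because a deeper barcode reaches 2 UMIs more easily, each barcode was also thinned to 3000 UMIs before the split, which left 6.19% positive in pBIC10 and 0.935% in pBIC. The gates themselves removed barcodes with Mrc1 or Mmp12. Before any gate, 317 pBIC10 and 13 pBIC barcodes held at least 2 UMIs of both genes together. The Csf1r and Lyz2 gates left 261 and 7 of them, and at the Cd3e gate the number went from 240 to 219 in pBIC10 and from 7 to 2 in pBIC. Of the 2 pBIC barcodes left, 1 held 5 UMIs of Mrc1 and none of Mmp12 among 21489, together with 48 of C1qa and 8 of Trem2. The other held 6 UMIs of Mmp12 and none of Mrc1 among 11012, with 0 of C1qa and 0 of Trem2.

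The values of Mrc1 and Mmp12 are a description, since they chose the members. In positive barcodes Mrc1 ran from 0 to 27 UMIs with a median of 1, and Mmp12 from 0 to 143 with a median of 2. Mrc1 alone was present in 48 barcodes, Mmp12 alone in 69 and both in 48. The sum of both genes was 2 in 45 barcodes, 3 to 5 in 54, 6 to 20 in 48 and over 20 in 18. Summed over the 165 barcodes, the level was 135 UMIs per 1e+06 UMIs of the set (CPM) for Mrc1 (interval 121 to 150) and 472 CPM for Mmp12 (446 to 499). Just outside the threshold, the 105 barcodes with a single UMI held 70 UMIs of Mrc1 and 35 of Mmp12. Just inside it, the 45 barcodes with 2 UMIs held 43 of Mrc1 and 47 of Mmp12. Droplets also take up free RNA, and the following levels describe it; the positive barcodes were chosen to lie above it. In 3125 pBIC10 T-cell barcodes (at least 2 UMIs of Cd3e, 0 of Csf1r, under 5 of Lyz2) with a median of 8406 UMIs, Mrc1 was at 0.936 CPM and Mmp12 at 0.508. In 1905 B-lineage barcodes (at least 3 UMIs of Cd79a and Cd79b) with a median of 17946 UMIs the levels were 0.417 and 0.491 CPM. After thinning to 3000 UMIs, 0.480% of T-cell barcodes held a UMI of Mrc1 and 0.416% one of Mmp12, and the same thinning of positive barcodes gave 33.9% and 45.5%.

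**Figure D1:**
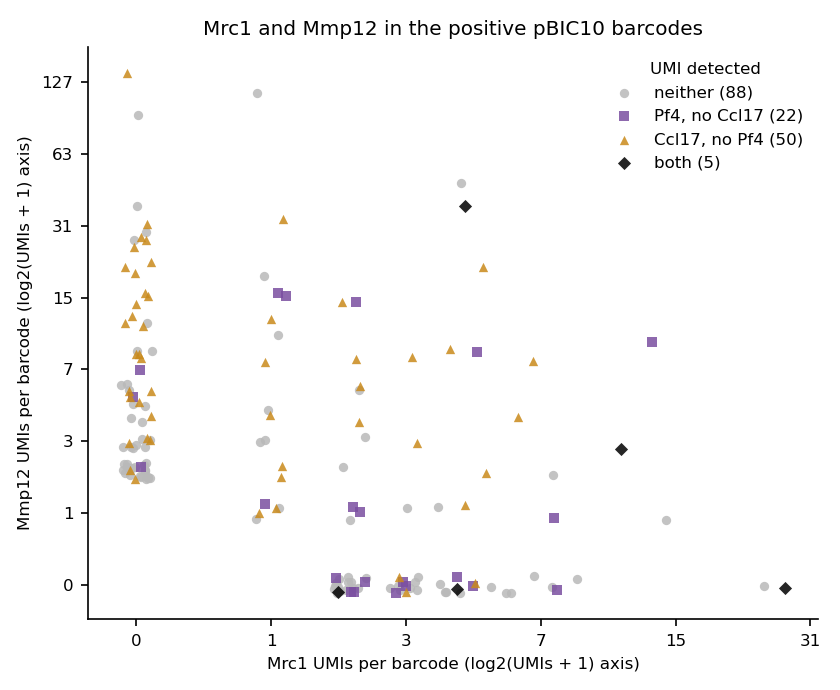
UMIs of Mrc1 (horizontal) and Mmp12 (vertical) in each of the 165 positive pBIC10 barcodes, both on log2(UMIs + 1) axes, with a small random shift so that points do not cover each other. Colours and shapes show whether Pf4, Ccl17 or both were detected: barcodes with Ccl17 lie mostly where Mmp12 is present, and barcodes with Pf4 mostly where Mrc1 is present. Of all 165 barcodes, 117 hold Mmp12 and 96 hold Mrc1, and by the gate a barcode without one holds the other.

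The label macrophage was checked against marker genes. The macrophage list (11 genes, among them Adgre1, C1qa, C1qb, C1qc, Cd68, Mertk, Fcgr1, Aif1, Cd14 and Ms4a7) summed to 4766 CPM in positive barcodes, from 226 to 23186 CPM in single barcodes, and to 2532 CPM in matched negative barcodes. All 11 genes were present, and 5 were at least 1.5-fold higher and 2 lower, against 5.51% and 7.10% of all genes compared. Adgre1, which encodes F4/80, was low in both sets, with 20 UMIs in positive and 31 in negative barcodes. Fcgr1 was the other lower gene, at 75 against 135 UMIs (log2 -0.85, interval -1.28 to -0.43). The higher genes were C1qa, C1qb, C1qc, Mertk and Ms4a7, while Cd68 differed by less than 1.5-fold (0.44). The label was thus met by C1q genes more than by F4/80 or Fcgr1. Classical monocyte genes (8 genes, among them Ly6c2, Ccr2, Vcan, F13a1, Chil3, Plac8 and Ms4a4c) were also present, at 5043 CPM against 8688 CPM, so positive barcodes were not free of monocyte transcripts. Of all 861 negative barcodes, 48.2% held at least 3 UMIs of Ly6c2 and 33.1% at least 3 of the C1q genes together. For the negative set the name macrophage thus describes the gate more than the markers. The red pulp macrophage list was also higher, at 919 CPM against 552 CPM: Spic was at 48 against 41 UMIs, Axl and Hmox1 were over 1.5-fold higher, and Cd163 had 0 UMIs in both sets. The plasmacytoid dendritic list was at 281 CPM against 225 CPM, with Siglech at 0 in both. The marginal zone list was at 29.4 CPM against 32.2 CPM and the cDC1 list at 229 CPM against 237 CPM. The T-cell list stood at 34.7 CPM against 31.4 (Cd3e was fixed at 0 by the gate), and the B-lineage list at 167 CPM against 176. The cDC2 list of 7 genes was at 379 CPM against 134. Mgl2, Dpp4 and Itgax were higher, Clec10a was nearly even at 30 against 26 UMIs, and Cd209a had 0 UMIs in both sets. Itgax was at 253 CPM against 112 and Mgl2 at 87.9 CPM against 1.89. Both are also counted below, in the lipid-associated and the alternative activation lists.

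Trem2 and Spp1 completed the label. Trem2 ran from 0 to 16 UMIs in positive barcodes and from 0 to 5 in matched negative ones, with a median of 0 in both, and a UMI was present in 78 and 47 of 165 barcodes. Its level was 84.9 CPM against 27.6 CPM, a log2 ratio of 1.62 (interval 1.23 to 2.02). The sets overlapped, and the negative barcodes still held far more Trem2 than the 0.294 CPM of T-cell barcodes. Spp1 was found in 17 positive and 9 negative barcodes, with at most 247 and 93 UMIs in 1 barcode. Its level was 268 CPM against 42.0 CPM, but 95.4% of its UMIs in positive barcodes came from 5 of them. Spp1 was thus not detected in most positive barcodes at this depth, and T-cell barcodes held it at 18.7 CPM, close to the 19.9 CPM over all 861 negative barcodes.

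**Figure D2:**
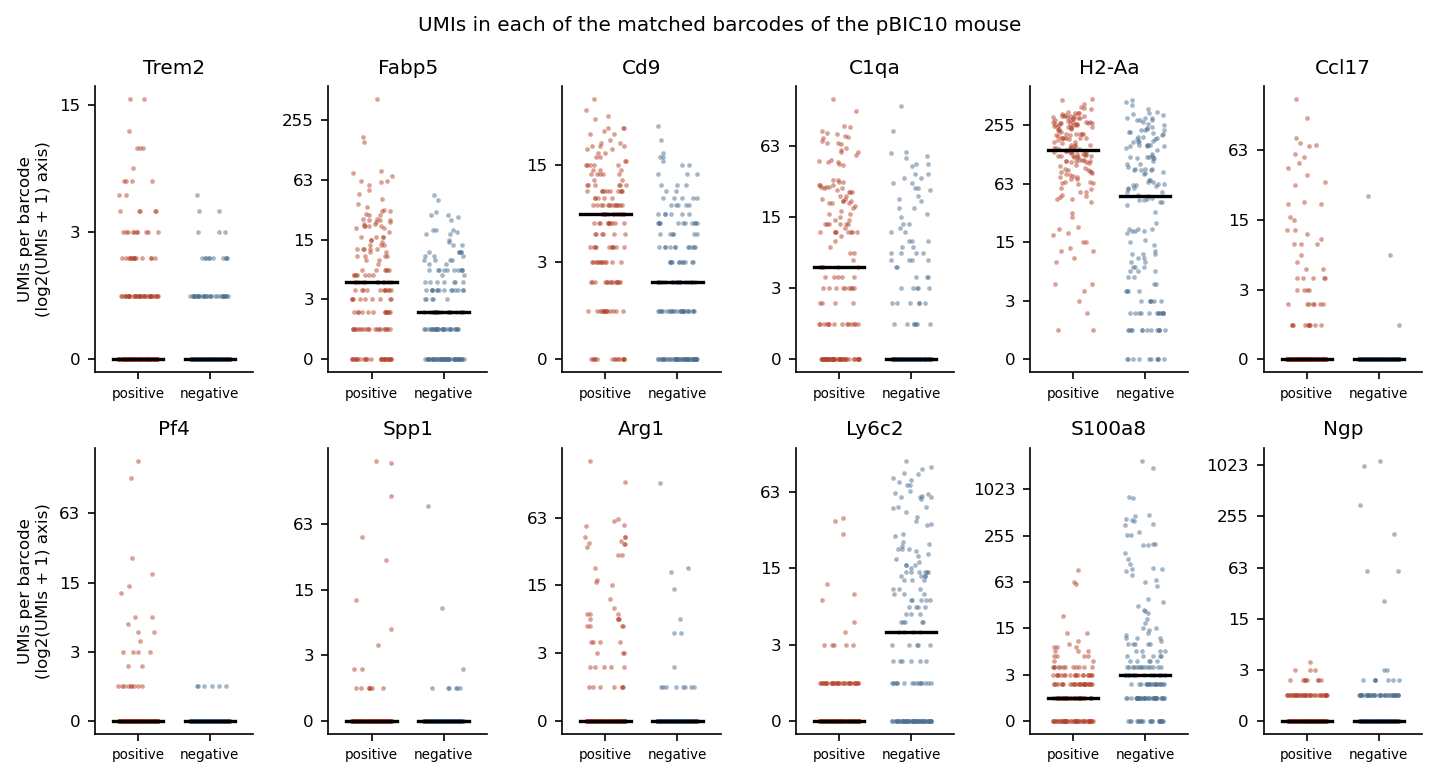
UMIs of 12 genes in each of the 165 positive (red) and 165 matched negative (blue) barcodes, on log2(UMIs + 1) axes with a random horizontal shift; black bars are medians. Cd9, C1qa and H2-Aa lie higher over most positive barcodes, while Ccl17, Pf4, Spp1 and Arg1 are high in a few, and Ngp is high in a few negative barcodes.

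Across 7490 genes with at least 50 UMIs over both matched sets, 413 (5.51%) were at least 1.5-fold higher and 532 (7.10%) at least 1.5-fold lower in positive barcodes, and the median log2 ratio of all genes was -0.06. The 12 genes that led each side, ranked by the bound of the interval nearest to no difference, are described first. Ccl17, a chemokine that attracts T cells bearing Ccr4, ran up to 176 UMIs in positive barcodes and was present in 55 of them, against 3 negative barcodes with at most 25 UMIs. Its level was 431 CPM against 12.5 CPM (log2 5.11, interval 4.61 to 5.65). Pf4, the chemokine platelet factor 4, was present in 27 positive and 6 negative barcodes and stood at 167 CPM against 2.27 CPM (log2 6.20, 5.07 to 7.65). A list of 6 platelet genes, among them Ppbp, Gp9, Gp1bb, Itga2b and Gp6, was also higher, at 22 against 11 UMIs (8.30 CPM against 4.16 CPM), and its part in the level of Pf4 was not tested. Mgl2, a galactose-binding lectin of alternatively activated macrophages and of dendritic cells, was present in 39 barcodes against 1 (log2 5.54, 4.29 to 7.17). Plet1, a surface protein, was present in 29 barcodes against 1 (log2 5.15, 3.76 to 7.04). These 4 genes were thus found in few matched negative barcodes, yet each was also undetected in most positive ones.

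Arg1, which breaks down arginine, was found in 52 positive and 16 negative barcodes, with up to 205 and 129 UMIs, and stood at 429 CPM against 80.2 CPM (log2 2.42, 2.21 to 2.64). Ear2, a ribonuclease of eosinophils and macrophages, was found in 75 and 42 barcodes, at 191 CPM against 35.6 CPM. Atp6v0d2, a proton pump subunit of macrophages and osteoclasts, had a log2 ratio of 3.73 (2.89 to 4.72), and Tnfrsf9, the co-stimulatory receptor 4-1BB, one of 2.51 (1.88 to 3.20). Ccnd1, the cyclin of the G1 phase, was present in 37.6% of positive and 15.2% of negative barcodes, with a log2 ratio of 2.20. Trf, the iron carrier transferrin, and Abca1, which exports cholesterol, both had log2 ratios of 2.17. Together with Spp1 these made up the 12. A few barcodes carried much of several of these values. The 5 highest barcodes held 83.9% of the UMIs of Pf4, 51.2% of those of Atp6v0d2, 48.1% of those of Mgl2 and 45.4% of those of Ccl17. Without the 5 highest barcodes of each set, 623 UMIs of Ccl17 against 0, 121 of Mgl2 against 0, 71 of Pf4 against 1 and 33 of Spp1 against 4 were left. Each of the 12 kept a ratio above 0 in all of the settings in which it could be computed. The lowest were 0.58 for Arg1, with only the Mmp12-only barcodes as positive, and 0.60 for Spp1, among C1q-bearing barcodes. The 12 were chosen for large ratios in these same barcodes. That choice favours a ratio above 0 in every setting, so nothing is concluded from the kept sign.

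The 12 genes that led the lower side were of a different kind, mostly granule and monocyte genes. For Camp and Ngp a few negative barcodes carried most UMIs, while Ly6c2, described below, was spread more widely. S100a9 and S100a8, the calprotectin subunits of neutrophils and monocytes, stood at 64.9 CPM against 4524 CPM (log2 -6.12) and at 209 CPM against 4570 CPM (log2 -4.45). S100a9 ran from 0 to 6 UMIs in positive barcodes and from 0 to 2916 in matched negative ones, with a median of 1 in both. Ngp, Camp, Lcn2 and Cd177, genes of neutrophil granules and the neutrophil surface, had log2 ratios of -5.47, -5.08, -5.32 and -5.17. Elane and Prtn3, serine proteases made in neutrophil precursors, had ratios of -5.59 and -5.54, Serpinb1a, which inhibits such proteases, -5.14, and Slpi, another inhibitor, -3.55. For Camp 98.2%, and for Ngp 95.1%, of the UMIs in negative barcodes came from 5 barcodes. Ngp was detected in 29.1% of positive and 32.7% of negative barcodes, so its detection hardly differed. At least 5 UMIs of Elane, Mpo, Prtn3, Ngp, Camp and Ltf together were present in 120 of 861 negative (13.9%) and 3 of 165 positive barcodes (1.82%). Without such barcodes the ratio of Camp turned to 0.71 and that of Ngp to 0.28, and 352 rather than 532 genes were lower. The neutrophil marker list summed to 337 CPM in positive and 11119 CPM in matched negative barcodes, up to 5564 and 345696 CPM in 1 barcode, and the erythroid list to 76.6 CPM and 314 CPM.

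Ly6c2, the Ly6C antigen of classical monocytes, was broadly lower rather than set by a few barcodes. It ran from 0 to 39 UMIs with a median of 0 in positive barcodes, and from 0 to 113 with a median of 4 in matched negative ones, and 45 against 109 of 165 barcodes held it. Its level was 71.3 CPM against 919 CPM (log2 -3.69, interval -3.91 to -3.47). Plac8, also high in classical monocytes, was at 226 CPM against 1354 CPM (log2 -2.58). Of the 8 classical monocyte genes, 6 were at least 1.5-fold lower and 0 higher. Ms4a4c was at 26.4 CPM against 129 CPM. Ccr2, the receptor that brings monocytes into tissues, did not follow, at 249 CPM against 262 CPM (log2 -0.07, -0.23 to 0.08). Over all negative barcodes, 48.2% held at least 3 UMIs of Ly6c2 and 33.1% at least 3 of C1qa, C1qb and C1qc together, against 7.88% and 72.1% of positive barcodes. Depth was not matched in these shares, and positive barcodes were deeper.

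**Figure D3:**
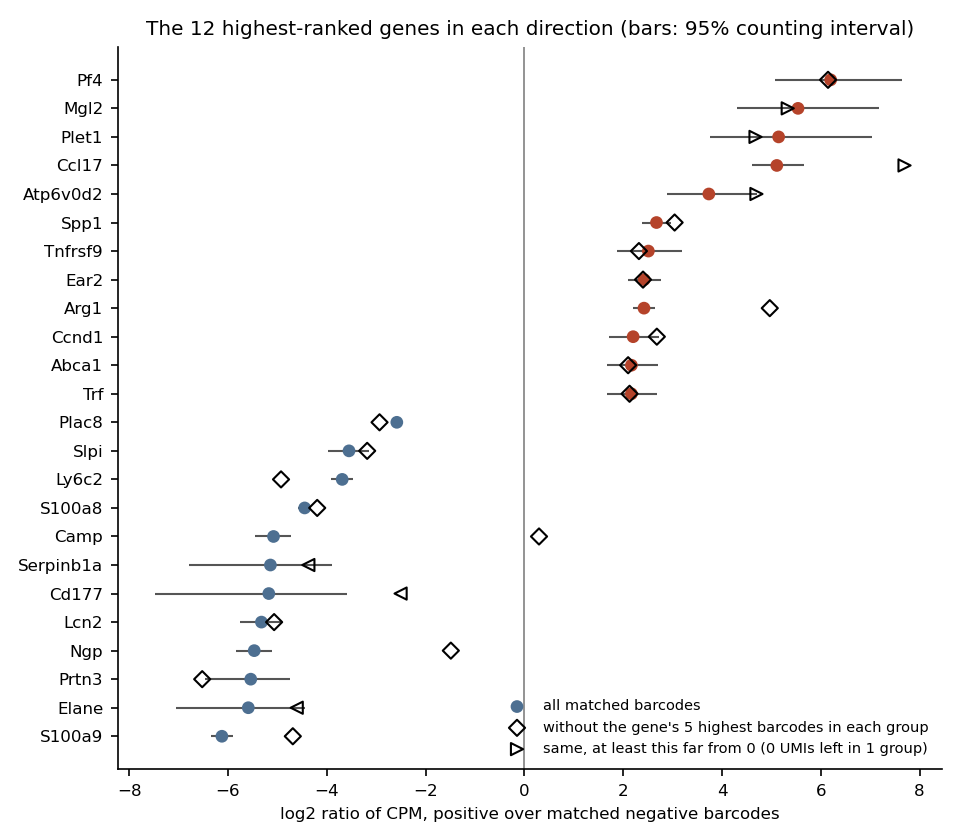
Log2 ratio of CPM, positive over matched negative barcodes, for the 12 leading genes in each direction (filled points, bars for the 95% counting interval), and the same without each gene's 5 highest barcodes in each set (open symbols; triangles are bounds where 1 set was left with 0 UMIs). The 12 higher genes stay above 0 without those barcodes, while Camp goes from -5.08 to 0.30 and Ngp from -5.47 to -1.49. All were chosen for large ratios in the same barcodes, which favours a kept sign.

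Genes of lipid-associated macrophages were higher as a group: of 13 with at least 50 UMIs, 10 were at least 1.5-fold higher and 0 lower, with a median log2 ratio of 1.27. Over all 7490 genes, 5.51% were higher and 7.10% lower, the shares to set beside each list count of this comparison. The list holds Trem2 and Spp1, for which the label was given. Fabp5, a fatty acid carrier, ran from 0 to 412 UMIs with a median of 5 in positive barcodes and from 0 to 44 with a median of 2 in negative ones (931 CPM against 292 CPM, log2 1.68). Cd9 and Cd63, tetraspanins of membranes and endosomes, had medians of 7 against 2 and 8 against 1 UMIs and log2 ratios of 1.18 and 1.36. Cd9 was detected in 91.5% of positive and 69.1% of negative barcodes. Gpnmb, a lysosomal membrane glycoprotein, had a ratio of 1.57, Lpl, which releases fatty acids from lipoproteins, 1.27, Itgax, the integrin CD11c, 1.17, and Apoe, the lipid carrier, 1.14. Ctsk, a cathepsin best known in osteoclasts, had the highest ratio, at 27.2 CPM against 3.40 CPM, with 87.5% of its UMIs in 5 barcodes. Lgals3 (0.46), the lipid-droplet gene Plin2 (0.15) and Tyrobp (-0.14), the signalling partner of Trem2, differed by less than 1.5-fold. Lpl was at -0.17 with Mrc1-only barcodes as positive, and with Mmp12-only barcodes Apoe was at -1.03 and Gpnmb at -1.24. Among barcodes with fewer than 3 UMIs of Ly6c2, 5 of 13 were higher, with a median of 0.50.

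The other uptake and digestion genes differed less. Of 10 scavenger and endocytic receptors, 4 were at least 1.5-fold higher and 0 lower (median 0.52): Cd36, which binds oxidised lipids (log2 2.80), Axl (0.92) and Mertk (0.81), which take up dying cells, and the lectin Clec4n (0.83). Msr1, a scavenger receptor, had a ratio of 0.48 and Scarb1, the receptor for high-density lipoprotein, one of -0.52. Of 22 cathepsin and lysosome genes, 5 were higher and 0 lower (median 0.32), against 5.51% and 7.10% of all genes. Besides Atp6v0d2 these were the proteases Lgmn (1.77), Ctsl (0.91) and Ctsd (0.78), and Lipa (1.09), which cleaves cholesterol esters. The abundant Ctss, which processes class II ligands, stood at 2900 CPM against 1946 CPM (0.58), just under the 1.5-fold line, and Ctsc (-0.30) lay below 0. Of 13 cholesterol and lipid genes, 4 were higher and 0 lower (median 0.29), among them Abca1, Ch25h, which makes an oxysterol (2.65, from 44 against 7 UMIs), and the phosphatase Acp5 (1.06). Of 7 iron and haem genes, 2 were higher: Hmox1, which breaks down haem (0.84), and Fth1, ferritin heavy chain (0.64). Without barcodes holding 3 or more UMIs of Ly6c2, Fth1 was at -0.0049 and Acp5 at 0.093. With Mmp12-only barcodes as positive, Ctsd was at -0.0037, Ctsl at -0.043, Lgmn at -0.28 and Mertk at -0.21.

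Among 8 further metalloproteinases, their inhibitors and related proteases, 4 were higher and 1 lower (median 0.70). Timp2, an inhibitor of metalloproteinases, was detected in 46.1% of positive and 20.6% of negative barcodes (log2 1.89), and Adam8 in 55.8% and 30.3% (1.48). Mmp9, a gelatinase, rested on 1 barcode that held 91 of its 93 UMIs, and it had 0 UMIs in negative barcodes. Mmp8, the neutrophil collagenase, was lower, with a ratio of -2.14. In the matrix and coagulation list 1 of 9 genes was higher and 3 were lower (median -0.45). F7, coagulation factor VII, had a ratio of 1.14, Vcan, a proteoglycan of monocytes, one of -2.57, and Thbs1, thrombospondin, one of -4.68, with 95.1% of its negative UMIs in 5 barcodes.

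Of 17 chemokines, 12 were at least 1.5-fold higher and 3 lower (median 1.02). Ccl24, an eosinophil attractant, had the largest ratio (log2 6.60, 874 against 9 UMIs), from 15 positive barcodes of which 5 held 86.6% of the UMIs. Cxcl3, a neutrophil attractant, came from 3 barcodes. Ccl8 was found in 8 positive barcodes, 5 of which held 97.0% of its UMIs. Broader differences were seen for Ccl6, in 92.1% of positive and 87.9% of negative barcodes (1820 CPM against 624 CPM, log2 1.54), for Ccl9 (1.46) and for Cxcl16 (0.78), which also serves as a scavenger receptor. Ccl12 (1.34), Cxcl2 (1.02), Ccl3 (48 against 24 UMIs) and Ccl22 (0.60) were also on the higher side, but not in every setting. Ccl3 went to -1.27 without its 5 highest barcodes, which held 89.6% of its UMIs, and Ccl12 to -0.20 among C1q-bearing barcodes. With each barcode counted alike Ccl12 went to -0.21 and Ccl8 to -0.17. Ccl22 had an interval of -0.24 to 1.47 and was at -0.11 without matching. Ccl2, which recruits monocytes, had a ratio of -0.88, Ccl5, a T-cell attractant, -0.85, and Cxcl10, an interferon-induced T-cell attractant, -0.73. Cxcl9, also induced by interferon, was close to even (-0.15). The median of the list was 0.21 when each barcode counted alike.

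Genes of alternative activation included Mgl2, Ear2 and Arg1, described above. Of 10 with at least 50 UMIs, 5 were higher and 0 lower (median 1.03). The others were Pdcd1lg2, the ligand PD-L2 (1.58, in 51.5% of positive and 21.2% of negative barcodes), and Socs2, an inhibitor of cytokine signals (1.73). Chil3, often counted with them, was lower by less than 1.5-fold (4349 CPM against 5642 CPM, log2 -0.38).

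MHC class II genes, which present antigen to CD4 T cells, were higher together: 8 of 9 at least 1.5-fold, 0 lower, median 0.87. H2-Aa ran from 1 to 472 UMIs with a median of 141 in positive barcodes and from 0 to 461 with a median of 47 in negative ones, so the sets overlapped over nearly their whole range. Its level was 10121 CPM against 5619 CPM. Ciita, the switch that turns these genes on, had a ratio of 1.04, and the peptide-loading genes H2-DMb2 and H2-Oa ratios of 1.22 and 0.97. H2-Oa was at -0.11 among C1q-bearing barcodes. The count depended on which negative barcodes were used: 3 of 9 were at least 1.5-fold higher without granule-gene barcodes (median 0.56), 2 of 9 without barcodes holding 3 or more UMIs of Ly6c2 (0.30), and 2 of 9 among C1q-bearing barcodes (0.28). Of 11 MHC class I genes, 0 were higher or lower, with a median of -0.12.

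Complement genes went in both directions, with 4 of 11 higher and 2 lower (median 0.28), against 5.51% and 7.10% of all genes. C1qa, C1qb and C1qc, the subunits of C1q, had ratios of 1.28, 1.15 and 1.38. With Mmp12-only barcodes as positive these ratios were -0.37, -0.37 and -0.29. C1qa ran from 0 to 159 UMIs with a median of 5 in positive barcodes and from 0 to 138 with a median of 0 in negative ones. C3ar1, the receptor of a C3 fragment, had a ratio of 1.14 (-0.37 with Mmp12-only barcodes as positive), whereas C4b (-1.95) was on the lower side at 14 against 54 UMIs.

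Proliferation genes were lower in 13 of 14 cases (median -1.30), among them Rrm2 (-1.88), Ccnb1 (-1.82) and Top2a (-1.66). Here, too, the negative set mattered. Without granule-gene barcodes 1 of 12 was lower (median -0.08), and after thinning all barcodes to 3000 UMIs without matching the median was 0.03. In all 861 negative barcodes 14.5% held at least 3 UMIs of cell-cycle genes (interval 12.2 to 17.1), against 18.2% of positive barcodes (12.6 to 24.9), and the intervals of the 2 shares overlapped. These shares were not matched for depth. Positive barcodes were deeper, with a median of 16627 against 11651 UMIs, and so reach 3 UMIs more easily.

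Interferon and IL-10 genes differed little. The counts that follow stand beside 5.51% higher and 7.10% lower over all 7490 genes. Of 15 interferon-gamma response genes, 2 were higher (Nos2, the inducible nitric oxide synthase, 1.43, and Ciita) and 1 lower (Cxcl10), with a median of -0.35. Nos2 went to -0.86 without barcodes holding 3 or more UMIs of Ly6c2, and Ciita to -0.098 with Mrc1-only barcodes as positive. Of 9 type I interferon genes, 0 were higher and 2 lower, the regulator Irf7 (-0.80) and Ifit2 (-0.78), with a median of -0.22. Of 15 genes of the IL-10 and STAT3 response, 1 was higher (Etv3, a repressor, 0.68) and 1 lower (Arid5a, an RNA-binding protein, -0.76), with a median of -0.25. Both counts lay near the shares over all genes. Il10ra, the ligand-binding receptor chain, stood at 106 CPM against 126 CPM (log2 -0.25, interval -0.49 to -0.02) and Il10rb, the shared chain, at 70.5 CPM against 68.9 CPM (0.03, -0.27 to 0.34). Il10 itself had 0 UMIs in positive barcodes, which allows a level of up to 1.13 CPM, and 1 UMI in matched negative ones. Among transcription factors, Klf2, a quiescence factor, had a ratio of -1.36, Nr4a1, needed by patrolling monocytes, one of -1.16, and Mitf, a regulator of lysosomal genes, one of 0.73. With Mrc1-only barcodes as positive Klf2 was at 0.16 and Arid5a at 0.35, and without Ly6c2 barcodes Mitf was at -0.0068. Klf2, Nr4a1 and Mitf were the only genes of the 18 in that list past 1.5-fold, and its median was 0.02. The lists of cytokines and decoys (2 of 10 higher, 3 lower), hypoxia and glycolysis (1 and 1 of 15), T-cell modulating ligands (1 and 0 of 13), Fc receptors (0 and 3 of 11), dissociation stress (1 and 2 of 12) and chemokine receptors (0 and 0 of 5) had medians between -0.22 and 0.19. Among the cytokines, Pdgfb, a growth factor of stromal cells, had a ratio of 1.35, and Il1r2, a decoy receptor for interleukin-1, one of -0.85.

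**Figure D4:**
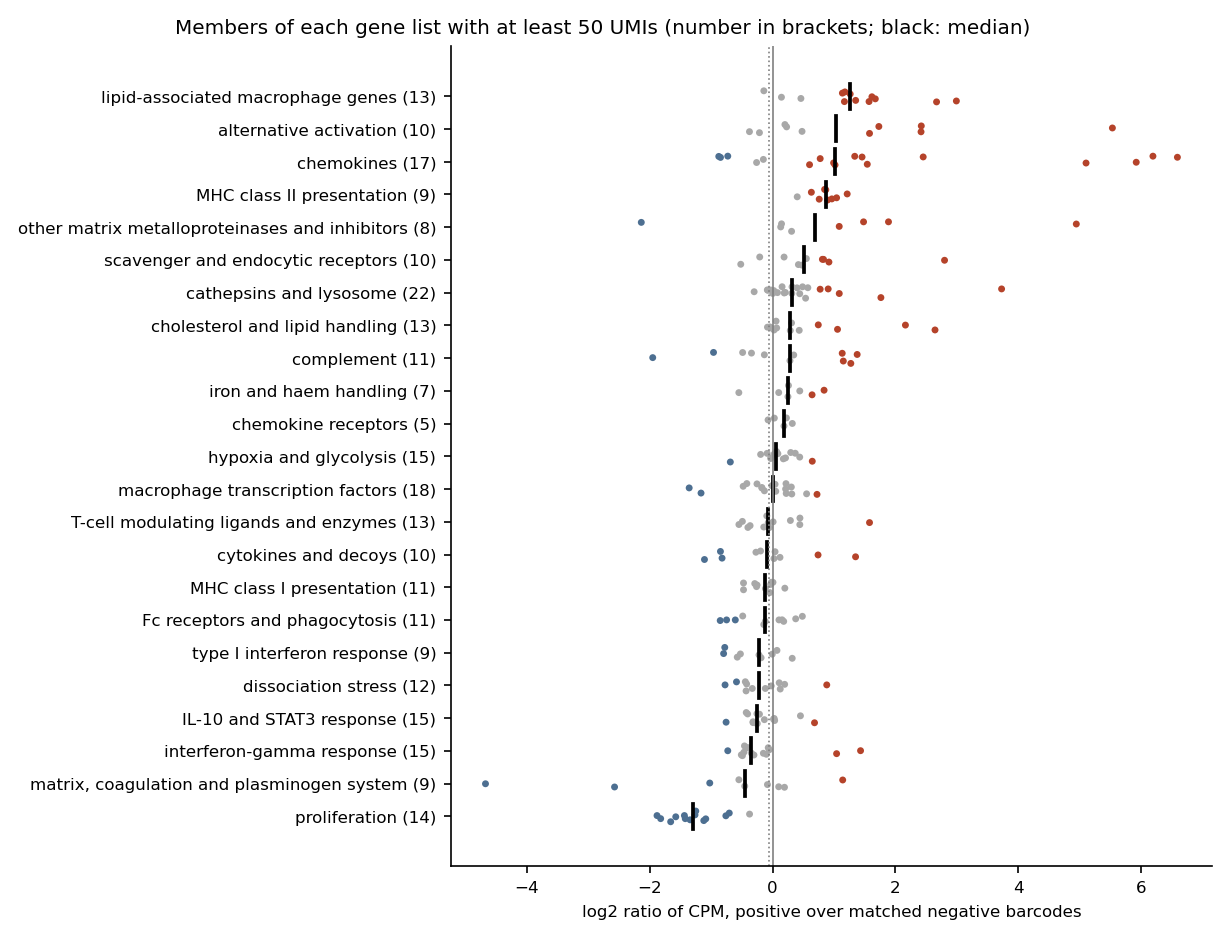
Log2 ratio of CPM, positive over matched negative barcodes, for each member of the 23 gene lists (points; red at least 1.5-fold higher, blue at least 1.5-fold lower, grey between), with list medians as black bars and the median of all genes (-0.06) as a dotted line. Lipid-associated, alternative activation, chemokine and MHC class II genes have the highest medians, and proliferation genes the lowest at -1.30.

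Positive barcodes were not of 1 kind. The 48 with Mrc1 alone and the 69 with Mmp12 alone, with median depths of 14974 and 17787 UMIs, were compared over 4420 genes, of which 400 (9.05%) were at least 1.5-fold higher and 269 (6.09%) at least 1.5-fold lower with Mrc1 alone. Apoe ran from 0 to 243 UMIs with a median of 15.5 in Mrc1-only barcodes and from 0 to 52 with a median of 1 in Mmp12-only ones, at 2615 CPM (interval 2496 to 2738) against 240 CPM (213 to 269), log2 3.45. Pf4 was in 13 of 48 against 3 of 69 barcodes (262 against 16 UMIs, log2 4.87). On the other side, Ccl17 was in 27 of 69 Mmp12-only barcodes with up to 176 UMIs and in 6 of 48 Mrc1-only ones with up to 3 (649 CPM against 17.4 CPM, log2 -5.22). Mgl2 was in 20 against 3 barcodes (log2 -3.11). Cst3, the protease inhibitor cystatin C that dendritic cells also make in quantity, was at 8088 CPM with Mmp12 alone and 2783 CPM with Mrc1 alone, and every one of the 69 Mmp12-only barcodes held it.

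The 12 genes leading the Mrc1 side also held C1qc (log2 2.03), the monocyte chemokine Ccl12 (4.02), Atp6v0d2 (3.95), the membrane protein Ms4a4a (3.03), the selenium carrier Selenop (2.92), Gpnmb (2.89), the protease Lgmn (2.79), Wfdc17 (2.56), Cxcl10 (2.36) and the chitinase-like Chil3 (1.91). With Chil3 at 7463 CPM against 1984 CPM, the classical monocyte list summed to 8313 CPM in Mrc1-only and 2651 CPM in Mmp12-only barcodes, while Ly6c2 was low in both, at 103 CPM and 82.9 CPM. The macrophage list was at 7360 CPM in Mrc1-only barcodes and at 2561 CPM in Mmp12-only ones, where it was close to the 2532 CPM of matched negative barcodes. For the Mmp12-only barcodes, the largest of the 3 subsets, the macrophage list thus gave less ground for the name macrophage. The cDC2 list ran the other way, at 196 CPM against 441 CPM, but it shares Itgax and Mgl2 with the lipid-associated and alternative activation lists. The Mmp12 side also held Ifitm1 (-3.10), Tnfrsf9 (-2.88), Rnase6 (-2.69), Nos2 (-1.65), the metabolic enzymes Fh1 (-1.58) and Ass1 (-1.22), H2-DMb2 (-1.55), the inflammatory cytokine Il1b (-1.46) and Bri3bp (-1.37). Without the 5 highest barcodes of each subset all 24 ratios kept their sign, but some moved by over 1.5-fold. The 24 genes were chosen for large differences between these subsets, which favours a kept sign. Pf4 went to 3.71, Wfdc17 to 1.06, Tnfrsf9 to -1.58 and Nos2 to -0.75, while Ccl17, Ifitm1, Rnase6, Il1b and Cxcl10 went farther from 0. For Pf4, 1 barcode held 184 of the 262 UMIs. Rnase6 was spread widely, in 43 of 69 Mmp12-only and 5 of 48 Mrc1-only barcodes.

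By list, 7 of 9 complement genes were higher and 0 lower with Mrc1 alone (median log2 1.47, against 0.00 over all 4420 genes), and 11 of 22 cathepsin and lysosome genes were higher and 0 lower (median 0.59). Over all 4420 genes, 9.05% were higher and 6.09% lower. MHC class II genes leaned to the Mmp12 side, with 0 of 9 higher and 3 lower (median -0.39). Lipid-associated genes divided, 6 of 12 higher and 3 lower: Trem2 was at 152 CPM against 39.8 CPM, while Itgax was at 170 CPM against 295 CPM. Set against their own depth-matched negative barcodes, Mmp12-only barcodes lacked the C1q and Apoe difference, with log2 ratios of -0.37 for C1qa, -0.37 for C1qb, -0.29 for C1qc, -1.03 for Apoe and -1.24 for Gpnmb. The 48 barcodes with both genes lay between the other subsets for 21 of the 24 leading genes: Apoe was at 1043 CPM, Pf4 at 224 CPM and Cst3 at 4111 CPM. The 24 genes were chosen for their large differences between those other subsets. That choice favours a place between for any other set, so nothing is concluded from the count. Their Ccl17, at 454 CPM, was nearer to the Mmp12-only level, their Mgl2, at 139 CPM, was above both, and their C1qc, at 1047 CPM, nearer to the Mrc1-only level. Single barcodes weighed on some of these levels: 1 of the 48 held 43 UMIs of Mgl2 and another held 130 of Pf4. The 3 subsets were defined by the same genes that define positive barcodes, and with shallow counts a barcode without a UMI of a gene may still express it.

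**Figure D5:**
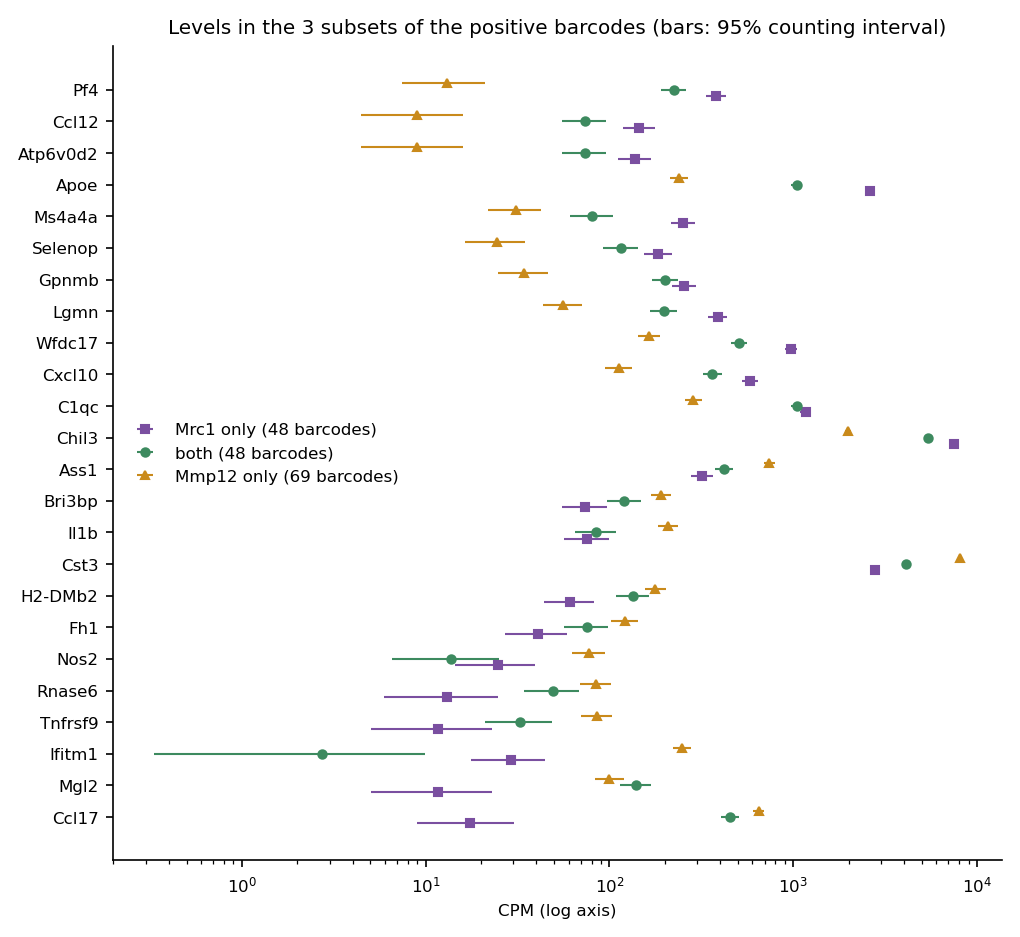
Levels in CPM (log axis, bars for exact 95% Poisson intervals) of the 12 leading genes on each side in Mrc1-only (48, purple squares), both (48, green circles) and Mmp12-only (69, orange triangles) positive barcodes. For 21 of the 24 genes the barcodes with both lie between, as for Apoe at 2615, 1043 and 240 CPM. They lie lowest for Ifitm1 and Nos2 and highest for Mgl2, of which 1 barcode held 43 UMIs. The genes were chosen for large differences between the Mrc1-only and Mmp12-only barcodes, which favours a place between.

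Within single barcodes, Pf4 was in 27 and Ccl17 in 55 of 165 positive barcodes, and both were in 5, which is 18.5% of the first and 9.09% of the second. Over all positive barcodes 33.3% held Ccl17 and 16.4% Pf4, and 88 barcodes held neither. Of the 27 barcodes with Pf4, 24 held Mrc1 and 14 held Mmp12. Of the 55 with Ccl17, 49 held Mmp12 and 28 held Mrc1. Over all 165 positive barcodes, 96 held Mrc1 and 117 held Mmp12, and by the gate a barcode without one held the other. Mgl2 shared 26 of its 39 barcodes with Ccl17, and Plet1 20 of its 29. C1qa was detected in 41 of the 55 barcodes with Ccl17 (74.5%) and in 117 of all 165 positive barcodes (70.9%). These shares count detection only, and the level of C1qc was higher with Mrc1 alone (log2 2.03). Spp1 and Arg1 shared 12 of the 17 barcodes with Spp1. Median depths were 19475 UMIs for barcodes with Pf4 and 14539 for those with Ccl17.

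The levels were also followed from 0 to over 20 UMIs of Mrc1 and Mmp12 together. These classes also differ in kind, since those with a single UMI held 70 UMIs of Mrc1 and 35 of Mmp12, and those with over 20 held 79 and 718. Ccl17 stood at 8.56 CPM in negative barcodes, 25.5 CPM in those with a single UMI, and 55.4, 192, 775 and 950 CPM in those with 2, 3 to 5, 6 to 20 and over 20 UMIs. Mgl2 followed the same order, at 1.14, 3.36, 13.8, 57.5, 122 and 225 CPM. Few barcodes carried the top of both series. Of the 18 barcodes with over 20 UMIs, single ones held 176, 80 and 73 UMIs of Ccl17, and 43 and 25 of Mgl2. The classes are also ordered by the count that chose the members. C1qa and H2-Aa did not form a series: both were already near the positive level in barcodes with a single UMI, C1qa at 1223 CPM and H2-Aa at 8569 CPM, against 402 CPM and 4548 CPM in negative barcodes. Spp1 was at 2.77 and 5.11 CPM with 2 and 3 to 5 UMIs, below the 19.9 CPM of negative barcodes, and at 499 and 857 CPM above that. The higher levels rested on few barcodes. Single barcodes held 247 and 117 UMIs of Spp1 in the class of 6 to 20, and 1 held 236 in the class over 20. The 105 barcodes with a single UMI thus stood with the positive ones for C1qa and H2-Aa and nearer to the negative ones for Ccl17 and Mgl2.

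In the pBIC mouse the 2 positive barcodes allow no comparison. The 103 negative barcodes of that mouse can be set beside the 861 of pBIC10, without matching and with 1 mouse each. Trem2 was at 7.37 CPM (9 UMIs, interval 3.37 to 14.0) against 40.6 CPM (36.9 to 44.7), and Cd9 at 85.2 CPM against 235 CPM. Fabp5 was at 665 CPM against 379 CPM, Apoe at 831 CPM against 729 CPM and C1qa at 512 CPM against 402 CPM. Spp1, Ccl17, Plet1 and Atp6v0d2 had 0 UMIs in the pBIC negative barcodes, which allows up to 2.46 CPM, and Arg1 had 175 UMIs, of which 161 were in 1 barcode. Medians of total UMIs were 9975 in pBIC and 11651 in pBIC10 negative barcodes. The genotype, the mouse and the library cannot be told apart in these values.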

How the data were processed

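The deposited files used here were the filtered gene expression matrices of both mice, which hold UMI counts per gene and barcode for 32285 features, and the TCR contig tables. The submitters' processing notes name Cell Ranger 3.0.1 and the matrix header names version 5.0.1. The notes name genome build GRCm39. The members and gene lists were chosen with earlier results of these data known. Barcodes were gated on counts as deposited, and each positive barcode was matched to a negative one on log2 total UMIs (largest allowed gap 0.1). UMIs were summed per set and divided by the summed totals to give CPM. Genes with at least 50 UMIs over both sets were compared, and 1.5-fold was the call. Intervals were exact Poisson for levels, exact binomial for ratios, and Clopper-Pearson for shares. A gene with 0 UMIs was given the limit of 3 counts.

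Named genes were the 12 in each direction with the interval bound farthest from no difference, among genes with at least 100 UMIs, 30 CPM in the higher set and a UMI in 10% of its barcodes, without gate and split genes, and without genes of immunoglobulins, haemoglobins, TCR segments, ribosomal proteins or mitochondria, sex-linked genes and predicted ones. From each of 23 pathway lists up to 3 called members per direction, and any member of the lipid-associated, lysosome, scavenger, complement and chemokine lists, could be named, as could Trem2, Spp1 and the Il10 genes. Other list members and the marker genes of 18 cell type lists were named after their values were seen. Scrublet called 0 doublets in pBIC, so it did not work there, and 396 in pBIC10; no barcode was removed for it in the main comparison. Thinning drew UMIs without replacement to 3000 per barcode (seed 1). Some list members are counted in their lists but not reported here by name. The script was tested on simulated counts. Tools were Python 3.11.15, numpy 2.4.6, scipy 1.17.1, pandas 2.3.3, scanpy 1.11.5 and matplotlib 3.10.9.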

Additional observations from a re-analysis of the deposited data

How the results depend on the processing

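The comparison was recomputed under 23 other settings, 6 of them chosen after seeing the data, and with a 2-fold call. Against 413 higher and 532 lower genes, 829 were lower without matching, 244 were higher with only Mmp12-only barcodes as positive, 764 were higher and 920 lower with a minimum of 20 UMIs per gene, 109 and 126 with 200 UMIs, and 124 and 160 with a 2-fold call. Among the settings chosen after seeing the data, 352 genes were lower without granule-gene barcodes, 278 lower without barcodes with at least 3 UMIs of Ly6c2, 274 higher and 301 lower among C1q-bearing barcodes, and 272 and 342 without cycling barcodes. Relative to the median of all genes, 509 were higher and 431 lower. The share of positive barcodes in pBIC10 was 6.19% after thinning.

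Some log2 ratios turned sign; the cause was not tested. With Mmp12-only barcodes they were -1.03 for Apoe, -0.37 for C1qa, -0.37 for C1qb, -0.29 for C1qc, -0.37 for C3ar1, -0.0037 for Ctsd, -0.043 for Ctsl, -1.24 for Gpnmb, -0.28 for Lgmn and -0.21 for Mertk. With Mrc1-only barcodes they were -0.098 for Ciita, 0.16 for Klf2, 0.35 for Arid5a and -0.17 for Lpl. Camp turned to 0.71 without granule-gene, 0.93 without Ly6c2 and 0.74 without cycling barcodes, and 0.30 without its 5 highest barcodes, and Ngp to 0.28, 0.053 and 0.010 in the first 3 of these. Without Ly6c2 barcodes Nos2 was at -0.86, Fth1 at -0.0049 and Mitf at -0.0068. Among C1q-bearing barcodes Ccl12 was at -0.20 and H2-Oa at -0.11. With each barcode counted alike Ccl12 was at -0.21 and Ccl8 at -0.17. Ccl22 was at -0.11 without matching, -0.20 thinned and -0.0083 matched also on genes detected. Without the 5 highest barcodes Ccl3 was at -1.27 and Adgre1 at 0.13. The median of the proliferation list was 0.026 after thinning.

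With 1 mouse per genotype nothing here measures the spread between mice, and a gene under 50 UMIs was not compared. No paired analysis was possible because each genotype had 1 mouse. DESeq2 and edgeR were not run, since the sets had no replicates.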
